A study of Mus musculus with 2 samples.

Results

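Of the 2878 wound monocytes and macrophages that passed the cell filter, 56 carried at least 10 transcripts of Ccl8, Gas6 and Igf1 in sum, and these 56 cells are described here. They comprised 8 of 1123 cells from non-diabetic mice and 48 of 1755 cells from diabetic mice. The filter kept cells with at least 500 genes and under 10% of their unique molecular identifiers (UMIs, 1 per captured transcript) from mitochondrial genes. The cells came from skin wounds on day 6 after injury and were profiled by 10x Chromium single-cell 3' RNA sequencing. Each condition is 1 library, pooled from 2 mice. The labels name neither the strains nor the diabetic model, so strain, pool and library cannot be told apart from diabetes. With no replicates, every difference below is a description without a test. Intervals are 95%, cover counting error only and treat each UMI as independent, so they leave out the spread between cells and between mice.

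Tissue-resident macrophages settle in the skin before injury and can maintain themselves there, while monocytes enter a wound from the blood and turn into inflammatory and later repair macrophages. Resident cells are known for scavenger receptors, complement C1q and the clearance of dying cells. Each of the genes in the rule encodes a secreted protein. Ccl8 is a chemokine that attracts leukocytes. Gas6 bridges phosphatidylserine on dying cells to the receptors Tyro3, Axl and Mertk (the TAM receptors). Igf1 is an insulin-like growth factor that skin macrophages make during repair. In GENCODE M21 on GRCm38, the build called mm10 in the submitters' processing notes, Ccl8 lies at chr11:82115185-82116799, Gas6 at chr8:13465374-13494490 and Igf1 at chr10:87858265-87937042.

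The selected cells made up 0.712% of the non-diabetic library (Clopper-Pearson interval 0.308% to 1.40%) and 2.74% of the diabetic library (2.02% to 3.61%). Because the rule counts raw UMIs, it takes deep cells more readily. Median depth was 20337 UMIs in the 8 non-diabetic and 21606.5 in the 48 diabetic selected cells, against 14079 and 16314 over all filtered cells. Thinning each cell to 5000 UMIs, with 3 UMIs required, gave expected shares of 1.32% of 982 non-diabetic and 2.93% of 1661 diabetic cells, after leaving out 141 and 94 shallower cells. Just inside the threshold, at 10 to 12 UMIs, lay 2 non-diabetic and 10 diabetic cells. Just outside it, at 7 to 9 UMIs, lay 2 and 15. At least 1 UMI of the 3 genes was found in 75 non-diabetic and 281 diabetic cells.

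Background from free RNA was read in dendritic cells, gated by Cd209a and Klrd1, which should lack C1q. A Ccl8 UMI occurred there in 1 of 78 non-diabetic cells (median 21135.5 UMIs) and 1 of 21 diabetic cells (median 21778 UMIs). Gas6 UMIs occurred in 0 of 78, which allows a share of up to 3.85%, and in 0 of 21, which allows up to 14.3%. C1qa, the A chain of complement C1q, was found in 4 of 78 and 2 of 21, against 7 of 8 and 46 of 48 selected cells. A UMI of Gas6 was present in 42 of the 48 diabetic selected cells, and of Ccl8 and Igf1 in 33 each.

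By their markers nearly all of the cells were macrophages. A list of 23 resident macrophage genes summed to 15416 CPM (counts per 1000000 UMIs) in the non-diabetic cells without the exception below and to 17603 CPM in the diabetic cells, against 2812 and 5195 CPM in the other cells. Csf1r, the receptor for macrophage colony-stimulating factor, was found in 8 of 8 and 48 of 48. In the diabetic cells the mannose receptor Mrc1 was found in 47 of 48 and the folate receptor Folr2 in 41 of 48. In the non-diabetic cells they were found in 7 of 8 and 5 of 8. Lyve1, a hyaluronan receptor of vessel-associated resident macrophages, was found in only 6 of 48. No UMI of Timd4, a phosphatidylserine receptor of long-lived resident cells, was found in 48 (a share of up to 6.25%) or in 8. No cell reached 5 UMIs of the endothelial, keratinocyte, T and NK, B, mast or erythroid lists. The Langerhans cell list, which shares Ltc4s with the resident list, reached 5 UMIs in 7 of 56 cells. The Schwann cell and fibroblast lists did so in 2 each, and the dendritic cell and mural lists in 1 each. The word resident therefore rests on Mrc1, Folr2 and C1q, and not on Lyve1 or Timd4. By these genes 1 diabetic cell did not match it, with 0 UMIs of Mrc1, Folr2 and the C1q genes and 88 of Il1b. Another diabetic cell held 0 UMIs of the C1q genes and 27 of Ccr2, but 18 of Mrc1 and 3 of Folr2. Other weak matches included a diabetic cell with 1 UMI of C1qa and 16 of Ccr2, but 26 of Mrc1. A further diabetic cell held 1 UMI of C1qa, 0 of Folr2 and 26 of Ccr2, but 23 of Mrc1. A non-diabetic cell held 0 UMIs of Folr2, 5 of Mrc1 and 270 of Il1b, but 33 of C1qa. All of these cells remain in the values. The neutrophil list reached 5 UMIs in 2 non-diabetic and 15 diabetic selected cells, against 153 of 1115 and 930 of 1707 other cells, and its part in the results below was not tested.

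The exception left out was the largest non-diabetic cell, with 74956 UMIs, 25 of Ccl8 and 3 of Igf1. It held 1521 UMIs of Col1a1, 1038 of Col3a1 and 180 of Dcn, all matrix genes of fibroblasts, but 0 of C1qa and Mrc1 and 1 of Lyz2. By these genes it did not match the label. It was also the only selected cell whose barcode occurred in both libraries. Of the 6 shared barcodes, 5 paired a barcode of at least 70232 UMIs with a partner of at most 763 in the other library. Values for non-diabetic cells are therefore given for the remaining 7, unless 8 are named. Comparisons of the libraries without stromal cells also leave out 1 diabetic cell with 5 or more stromal UMIs, so they set 47 cells beside 7.

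The 7 non-diabetic macrophages differed from each other. Ccl8 carried the first, with 29 UMIs beside 1 of Gas6 and 0 of Igf1. The next held 26 UMIs of Igf1 and 0 of the other genes, together with 270 of the cytokine Il1b and 51 of the prostaglandin synthase Ptgs2. In 3 cells Gas6 came with Igf1, at 10 and 15, 13 and 5, and 11 and 3 UMIs. The last of these also held 44 UMIs of Lyve1, 83 of the alternative activation gene Retnla, 27 of the haemoglobin scavenger receptor Cd163 and 29 of the MHC class II gene H2-Aa. The final pair were Gas6 cells, with 10 and 9 UMIs, and the second of them held 321 UMIs of the acute-phase gene Saa3. A sum over so few cells therefore often rests on 1 of them, and this is stated below where it applies.

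In the diabetic library the mix of the 3 genes varied between cells. UMIs of all 3 were found in 20 of 48 cells, of 2 in 20 and of only 1 in 8. At least 10 UMIs of Gas6 alone sufficed in 23 cells, of Ccl8 in 18 and of Igf1 in 12, while 11 cells reached the sum with none at 10. Across the 48 cells, Spearman's rho of CPM was 0.00701 for Ccl8 with Gas6, -0.134 for Ccl8 with Igf1 and 0.0408 for Gas6 with Igf1. The cells were selected on the sum of those genes, which can lower such values, and they share a library, so the values are descriptions only.

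Ccl8 was the most uneven of the rule genes, from 0 through a median of 268.5 to 7883.7 CPM in the diabetic cells and from 0 through 25.7 to 873.4 CPM in the 8 non-diabetic cells. The top cell alone held 514 UMIs of Ccl8, or 36.1% of the diabetic sum. Gas6 ran from 0 through 376.2 to 1344.3 CPM in the diabetic cells and from 0 through 516.1 to 962.4 CPM in the 8 non-diabetic cells. Igf1 ran from 0 through 143.8 to 1921.1 CPM in the diabetic and from 0 through 149.0 to 770.2 CPM in the 8 non-diabetic cells, where the median of the 7 was 235.9 CPM. For all 3 genes the ranges of the libraries overlapped.

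**Figure D1:**
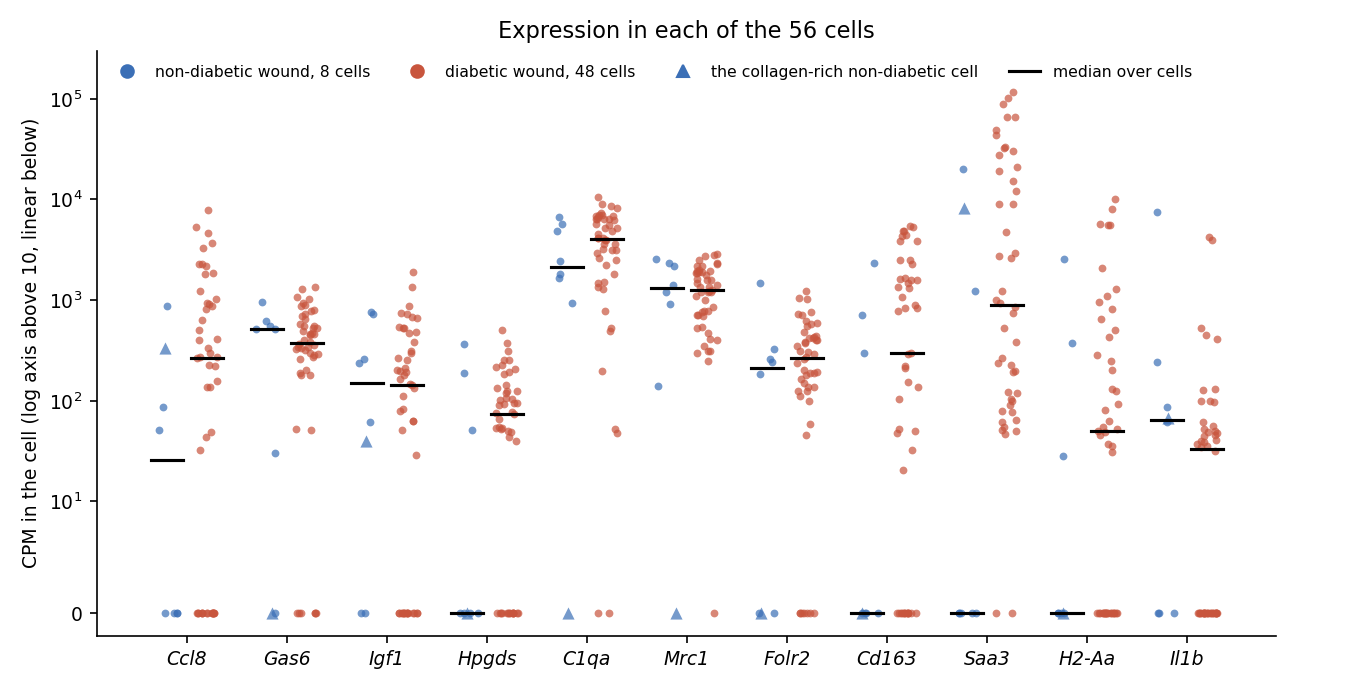
CPM per cell of 11 genes in the selected cells (axis logarithmic above 10 CPM and linear below; blue, 8 non-diabetic; red, 48 diabetic; triangle, the collagen-rich non-diabetic cell; black line, median). C1qa and Mrc1 are present in nearly every cell, while Saa3 runs from 0 to 117086 CPM within the diabetic cells.

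The Ccl8 gene lies beside Ccl12, which encodes a related monocyte-attracting chemokine and was also high in these cells (below). The end of Ccl12 is 11785 bases from the start of Ccl8. C1qb and C1qc lie beside C1qa on chromosome 4. Their promoter windows, 250 bases before to 50 after the start site, are shown because both genes of each pair were high in the selected cells. RefSeq on GRCm38.p6 gives them at chr11:82114935-82115234 for Ccl8 and chr11:82101595-82101894 for Ccl12, both on the plus strand. Those of C1qb at chr4:136886151-136886450 and C1qc at chr4:136892865-136893164 are on the minus strand and written in gene orientation. Capitals mark matches on either strand to the motifs searched.
Ccl8: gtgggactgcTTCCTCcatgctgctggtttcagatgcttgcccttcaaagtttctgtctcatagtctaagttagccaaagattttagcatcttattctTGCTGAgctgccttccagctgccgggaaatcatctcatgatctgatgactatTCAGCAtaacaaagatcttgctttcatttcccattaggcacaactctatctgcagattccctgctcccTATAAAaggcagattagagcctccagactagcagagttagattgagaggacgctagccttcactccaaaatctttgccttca
Ccl12: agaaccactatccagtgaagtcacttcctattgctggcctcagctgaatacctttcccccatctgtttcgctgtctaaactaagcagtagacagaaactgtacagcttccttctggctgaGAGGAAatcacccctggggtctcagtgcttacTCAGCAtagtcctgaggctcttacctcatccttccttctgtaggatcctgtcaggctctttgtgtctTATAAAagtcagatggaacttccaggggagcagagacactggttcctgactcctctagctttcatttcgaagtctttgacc
C1qb: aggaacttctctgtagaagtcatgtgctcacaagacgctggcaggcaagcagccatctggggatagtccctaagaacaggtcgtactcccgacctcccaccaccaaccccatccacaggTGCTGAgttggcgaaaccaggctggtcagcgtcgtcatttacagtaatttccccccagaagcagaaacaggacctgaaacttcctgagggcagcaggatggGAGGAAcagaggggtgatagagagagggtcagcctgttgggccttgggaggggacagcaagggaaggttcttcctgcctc
C1qc: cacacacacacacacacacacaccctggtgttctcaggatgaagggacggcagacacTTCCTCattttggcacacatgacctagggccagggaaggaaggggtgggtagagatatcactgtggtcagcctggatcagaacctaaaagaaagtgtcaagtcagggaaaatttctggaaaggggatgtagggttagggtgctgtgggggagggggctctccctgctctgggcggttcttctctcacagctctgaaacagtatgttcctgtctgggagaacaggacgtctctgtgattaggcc
The motifs were GAGGAA for the myeloid factor PU.1 (in 28.3% of 32851 windows), TGCTGA as a MAF half-site (19.5%) and TATAAA as a TATA box (13.6%). AP-1 was searched as TGANTCA (7.81%). NF-kB (1.63%) and the interferon response element (3.44%) were searched by their usual consensus of 10 letters. Ccl8 and Ccl12 had the same kinds of match. Relative to the start site, Ccl8 had PU.1 at -240, MAF at -152 and -100 and TATA at -32. Ccl12 had PU.1 at -130, MAF at -98 and TATA at -31. The C1q windows held no TATA match. C1qb had MAF at -131 and PU.1 at -30, and C1qc had PU.1 at -193. None of the 4 windows matched the AP-1, NF-kB or interferon letters. A match is a description of letters and not a bound site.

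Against the other cells of their library, the selected cells carried more of the resident macrophage and lysosome genes, and less of the classical monocyte genes and inflammatory mediators. Levels are CPM of summed UMIs, and a difference is the log2 ratio of the sums, where 1 is 2-fold. Genes with 20 UMIs over both sums count as measured. In the diabetic library 1287 of 11659 measured genes (11%) were at least 2-fold higher and 1355 (11.6%) at least 2-fold lower, with a median of 0.14. In the 7 non-diabetic cells 2746 of 10518 (26.1%) were higher and 1041 (9.9%) lower, with a median of 0.37. Among genes at 100 CPM or more in the higher sum the medians were 0.0057 and 0.053. Of the 19 measured resident genes, 13 were higher and 3 lower in the diabetic cells, with a list median of 2.32. In the non-diabetic cells 12 of 17 were higher and 1 lower (median 3.01). The list was chosen for such cells, so its direction is not independent of the label. Scavenger and efferocytosis receptors were split, with 8 of 20 higher and 3 lower in the diabetic cells (median 0.39) and 7 of 18 higher and 2 lower in the non-diabetic cells (median 0.62).

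The genes named first are an enzyme and several receptors. Cbr2, a carbonyl reductase of resident macrophages, stood at 543.7 CPM in the non-diabetic and 298.2 CPM in the diabetic selected cells. That was higher than in other cells by a log2 ratio of 5.69 (5.29 to 6.08) and 3.05 (2.86 to 3.22). Folr2 was higher by 4.59 (4.04 to 5.08) and 3.04 (2.87 to 3.20), and the scavenger receptor Stab1 by 3.02 (2.76 to 3.27) and 2.85 (2.73 to 2.96), on the same scale. Fcgrt, the neonatal Fc receptor that recycles antibody, was higher by 3.26 and 2.95, and Nrp1, a co-receptor for semaphorins and VEGF, by 3.22 and 2.76. Nrp1 was detected in 48 of 48 diabetic cells. Gpnmb, a glycoprotein of lipid-laden and repair macrophages, was higher by 3.62 (3.07 to 4.10) and 3.11 (2.84 to 3.36). It was found in only 23 of 48 diabetic cells, and its sum there leaned on 1 cell with 64 UMIs and another with 31. The non-diabetic ratios rest on 7 cells. Cbr2 and Folr2 share near-identical sequence with unnamed or predicted gene models, so their counts could be split.

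**Figure D2:**
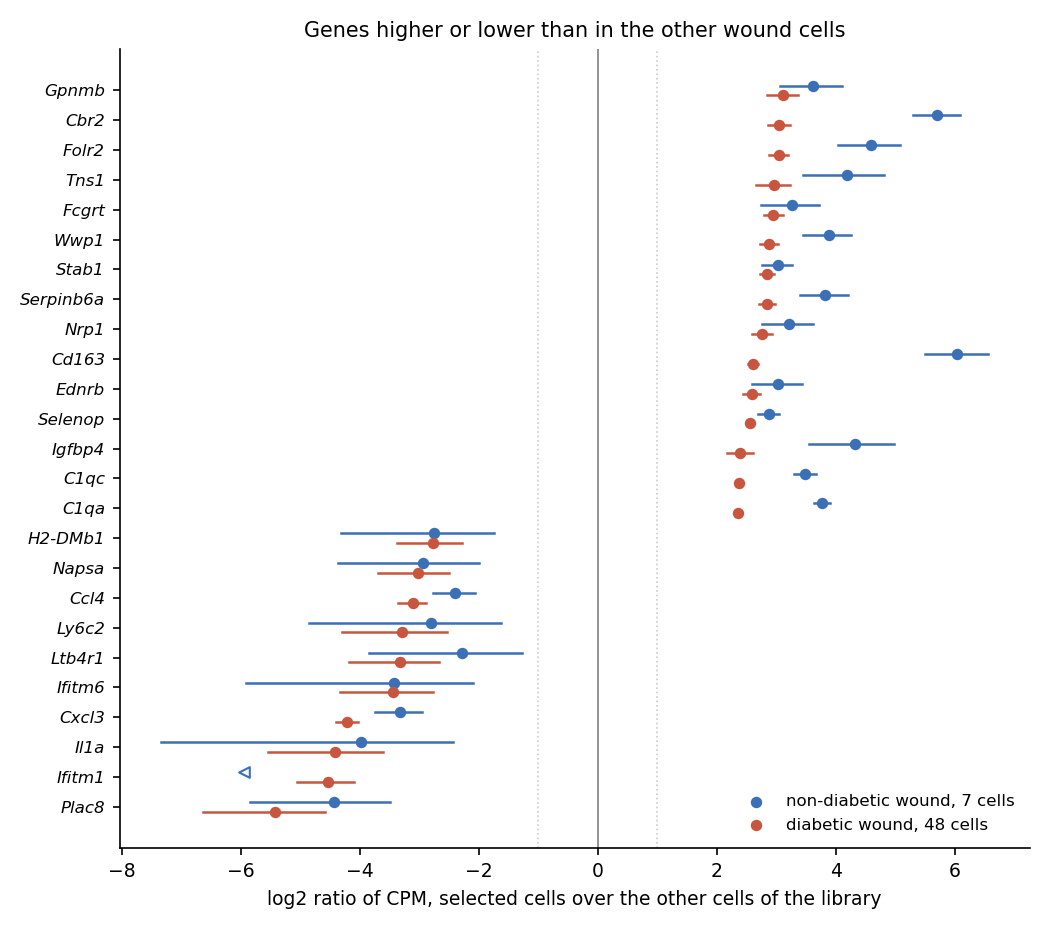
Log2 ratio of CPM in the selected cells over the other cells of the same library for 25 genes (blue, 7 non-diabetic cells; red, 48 diabetic cells; bars, 95% intervals of counting error; open triangle, bound for a sum of 0; dotted lines, 2-fold). The 15 higher genes include Cbr2, Folr2 and Gpnmb, and the 10 lower ones include Il1a, Plac8 and Cxcl3.

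Of the receptors for Gas6, Mertk was higher and Axl nearly absent. Mertk, the TAM receptor of efferocytosis, was higher than in other cells by a log2 ratio of 2.39 (1.49 to 3.10) in the non-diabetic and 1.29 (0.92 to 1.61) in the diabetic cells, where 33 of 48 held a UMI. Axl had 0 UMIs in the 7 non-diabetic cells and 4.3 CPM in the diabetic ones, against 9.5 CPM in other diabetic cells. The related ligand Pros1 (protein S) was at 51.3 CPM, with a log2 ratio of 0.65 (0.24 to 1.02) in the diabetic library.

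For the Igf1 axis, Igfbp4, a secreted protein that binds insulin-like growth factors, was also higher than in other cells. Its log2 ratio was 4.32 (3.54 to 4.98) in the non-diabetic and 2.39 (2.17 to 2.61) in the diabetic cells. Whether Igfbp4 and Igf1 were high in the same cells was not tested. The receptor Igf1r, at 37.4 CPM, did not pass 2-fold (log2 ratio -0.00, -0.49 to 0.42, in the diabetic library). Irs2, Igfbp3, Igfbp6 and Igfbp7 were the 4 genes of the list at least 2-fold lower in the diabetic cells, of 9 measured. Other repair factors were split, with 5 of 17 higher and 8 lower. Pdgfc, a platelet-derived growth factor, was at 40.0 CPM in 23 of 48 cells against 1.6 CPM in others (log2 ratio 4.61, 3.99 to 5.22). Vegfa, the main vessel growth factor, was on the lower side and its relative Vegfb on the higher side (log2 ratio 2.07, 1.42 to 2.63).

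Among chemokines, the neighbours of Ccl8 on chromosome 11 did not all follow it. Ccl12 was higher by a log2 ratio of 2.52 (1.83 to 3.08) in the non-diabetic and 3.18 (2.96 to 3.39) in the diabetic cells, 33 of which held a UMI. In the non-diabetic cells 79.2% of the Ccl12 UMIs were in 1 cell, and the ratio was -0.44 when only cells under 5% mitochondrial UMIs were kept. That limit left 4 non-diabetic cells, the collagen-rich cell among them with 0 UMIs of Ccl12. Ccl2, the main attractant of Ccr2 monocytes, had ratios of -1.36 (-1.77 to -1.01) and 0.48 (0.36 to 0.59), and Ccl7 of 0.09 and 0.96. In the non-diabetic library 1 cell held 56.9% of the Ccl2 and 60.0% of the Ccl7 UMIs, and 1 diabetic cell held 52.2% of the Ccl7 UMIs there. Promoter windows of Ccl2 and Ccl7 are not shown. Pf4, a platelet-factor chemokine of resident macrophages, was at 7588 CPM and higher by 1.57 (1.54 to 1.60) in the diabetic cells. Ccl3, Ccl4, Cxcl1, Cxcl2 and Cxcl3, which attract monocytes and neutrophils, were all at least 2-fold lower there.

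Hpgds and Syngr1, which the rule did not use, were also high in the ratios of sums. Both, like C1qa, were listed as markers of these cells with earlier results of the data known. Their direction is therefore not independent of the label. Hpgds, the synthase that makes prostaglandin D from its precursor, was higher by 4.21 (3.14 to 5.07) and 4.19 (3.83 to 4.54) in log2 ratio. It ran from 0 through a median of 74.7 to 499.6 CPM in the 48 diabetic cells, and 34 of them held a UMI, against 5.3% of other diabetic cells. It was found in 3 of 8 non-diabetic cells, and its rho with Ccl8 across the 48 diabetic cells was 0.224. Syngr1, a vesicle membrane protein, was higher by 4.52 and 3.52. Ptgs2, which makes the prostaglandin precursor and is induced in inflammation, went the other way at -2.19 (-2.55 to -1.87) and -5.77 (-6.37 to -5.27), with 68.9% of its non-diabetic UMIs in 1 cell. Of 12 measured prostanoid and leukotriene enzymes in the diabetic cells, 4 were higher (Hpgds, Tbxas1, Ltc4s, Cbr2) and 4 lower (Ptgs2, Ptges, Hpgd, Pla2g4a).

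Lysosome, iron and lipid genes were more often at least 2-fold higher than lower, and complement was led by C1q. C1qa stood at 3032 CPM in the non-diabetic and 4115 CPM in the diabetic selected cells, with log2 ratios of 3.77 (3.63 to 3.91) and 2.35 (2.31 to 2.40). Of 14 measured complement genes 6 were higher and 1, the integrin Itgax, lower in the diabetic cells. Of 15 lysosome genes 9 were higher and 0 lower in each library. Among these were the proteases Ctsb, at 6103 CPM and a log2 ratio of 1.95 (1.92 to 1.99) in the diabetic cells, and Ctsd, at 1.90 (1.84 to 1.95). Of 14 heme and iron genes 8 were higher and 0 lower there. Hmox1, which degrades heme, was higher by 1.33 (1.27 to 1.39) and detected in 47 of 48 cells. The iron exporter Slc40a1, at 4.80 (4.29 to 5.32), was found in 11 of the 48 with 49.3% of its UMIs in 1 cell, and Spic, the factor of iron-recycling macrophages, in 12, at 1.86 (1.14 to 2.47). Apoe, which carries lipid out of cells, reached 18516 CPM (log2 ratio 2.07, 2.04 to 2.09). Of 13 lipid genes 8 were higher and 0 lower in the diabetic cells.

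All 14 measured inflammatory mediators were at least 2-fold lower in the diabetic selected cells than in other diabetic cells (list median -3.74), as were 10 of 14 in the non-diabetic cells (median -1.71). Il1b stood at 191.2 CPM against 4839 CPM in other diabetic cells (log2 ratio -4.66, -4.86 to -4.47). A UMI of Il1b was found in 25 of the 48, against 89.5% of other diabetic cells, which were shallower. Il1a had ratios of -3.98 (-7.34 to -2.44) in the non-diabetic and -4.42 (-5.55 to -3.61) in the diabetic cells, where 70.0% of its 10 UMIs were in 1 cell. Of 10 classical monocyte genes 9 were lower and 0 higher in the diabetic cells. The neutrophil list moved with these, at a summed 213.8 CPM in the diabetic selected and 4824 CPM in the other diabetic cells, with 6 of 7 measured genes lower. Plac8 was at -4.44 (-5.85 to -3.50) and -5.43 (-6.64 to -4.58), and Ccr2, the receptor for Ccl2, at -3.45 and -1.62. The monocyte list still reached 5 UMIs in 48 of 48 cells, at a summed 1995 CPM against 5996 CPM in other cells. MHC class II genes, which present antigen to T cells, were lower too, with 10 of 12 in the diabetic cells and 11 of 12 in the non-diabetic ones. For H2-Aa the log2 ratio was -1.84 (-1.95 to -1.74) and -3.16 (-3.68 to -2.72), in that order. The non-diabetic sum rested mostly on 1 cell with 29 UMIs, and the next highest held 8. Per cell the MHC class II list did not follow its sums. Its median was 4722 CPM in the diabetic selected cells and 3279 CPM in the other diabetic cells, and 2957 and 3249 CPM in the non-diabetic library, where other cells reached 148986 CPM. Immediate early genes, which cell dissociation induces, were lower for 9 of 15 and higher for 0 in the diabetic cells, and their part in these ratios was not tested. Median mitochondrial shares were 4.52% in the diabetic selected cells and 3.80% in the others.

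Between the libraries, diabetic selected cells carried more Saa3, Hebp1 and Fabp5, and less Cd81 and Pdpn, than non-diabetic ones. Of 6333 measured genes, 585 (9.24%) were at least 2-fold higher and 553 (8.73%) lower in the 47 diabetic over the 7 non-diabetic cells, with a median of -0.00. With the collagen-rich cell kept, 596 of 6675 (8.93%) were higher and 640 (9.59%) lower. Over the other cells of the libraries, 1136 of 12228 (9.29%) were higher and 743 (6.08%) lower. The choice to leave out stromal cells was made after their values were seen.

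The rule genes themselves are given as description. Ccl8 stood at 1238.8 CPM over the diabetic and at 198.3 CPM over the 7 non-diabetic cells, a log2 ratio of 2.63 (2.15 to 3.22). Of the 31 non-diabetic UMIs of Ccl8, 93.5% came from 1 cell. For Gas6 the ratio was 0.32 (-0.07 to 0.77) and for Igf1 -0.22 (-0.64 to 0.25). In other cells Gas6 had a ratio of 2.04. The rule holds those cells under 10 UMIs of the 3 genes in sum, so that value depends on the selection too.

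Hebp1, a heme-binding protein, ran from 0 through 273.7 to 916.8 CPM in the 48 diabetic cells, 45 of which held a UMI. In the non-diabetic library it was found in 3 of 8 cells, the highest at 155.6 CPM. Its log2 ratio was 3.07 (1.97 to 4.84), beside 4.59 in the other cells. Fabp5, a fatty acid carrier, ran from 0 through 2800 to 14390 CPM in the diabetic and from 0 through 564.8 to 2645 CPM in the 7 non-diabetic cells. Its ratio was 2.40 (2.14 to 2.69), beside 1.72 in the other cells, and reads of Fabp5 could be shared with near-identical pseudogenes. For both genes the ranges overlapped, and the other cells of the wound differed in the same direction.

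Saa3, an acute-phase apolipoprotein, was found in 46 of 48 diabetic and 3 of 8 non-diabetic cells. At least 100 UMIs were held by 18 of 48 and by 2 of 8, the collagen-rich cell among the latter. Detected counts in diabetic cells went down to 1 UMI, and the part of free RNA in low counts was not tested. The log2 ratio of Saa3 was 2.86 (2.71 to 3.02), with 88.7% of the non-diabetic UMIs in 1 cell, beside 7.10 in the other cells. Of 7 measured acute-phase and antimicrobial genes 5 were higher and none lower. Cd163 had a ratio of 1.90 (1.51 to 2.34), with 51.9% of the non-diabetic UMIs in 1 cell, beside 5.32 in the other cells. Clec10a, a galactose-binding lectin, differed from the rest of the wound in direction. Diabetic cells held 266.9 CPM and non-diabetic ones 38.4 CPM (log2 ratio 2.73, 1.70 to 4.30), while the other cells had -0.97. It was found in 30 of 48 and 2 of 7 cells, and its sequence is nearly shared with Mgl2, which had 0 UMIs in the diabetic cells. The scavenger receptor Marco was found in 8 of 48 diabetic cells and in 0 of 7 non-diabetic cells (a share of up to 42.9%). Against a floor of 3 UMIs in that sum it was at least 6.66-fold higher over the 47 diabetic cells. That value leaned on 1 cell with 70 UMIs and another with 30. It leaves out 1 of the 8 cells, the stromal one, with 10 UMIs.

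On the lower side, Cd81, a tetraspanin of the cell surface, was found in 4 of 7 non-diabetic cells, the highest at 1137 CPM, and in 3 of 48 diabetic cells, the highest at 79.1 CPM. Its log2 ratio was -5.81 (-8.37 to -4.31), beside -0.45 in the other cells. Pdpn, the mucin-like podoplanin, was found in 5 of 7 and 5 of 48 cells, with a ratio of -5.05 (-6.25 to -4.10) beside -0.98. A single cell held 66.7% of the non-diabetic Pdpn UMIs and 48.1% of those of Cd81. The complement gene C4b had a ratio of -3.17 (-4.13 to -2.25), in 3 of 7 and 5 of 48 cells, with 62.5% of the non-diabetic UMIs in 1 cell, and is nearly identical to C4a. Fcrls, an Fc receptor-like gene of resident macrophages and microglia, was at 243.1 CPM in the non-diabetic and 63.5 CPM in the diabetic cells (log2 ratio -1.91, -2.48 to -1.29). Mmp12, Lyve1 and Retnla were also lower, but 1 non-diabetic cell held 89.0%, 93.6% and 100% of their UMIs.

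**Figure D3:**
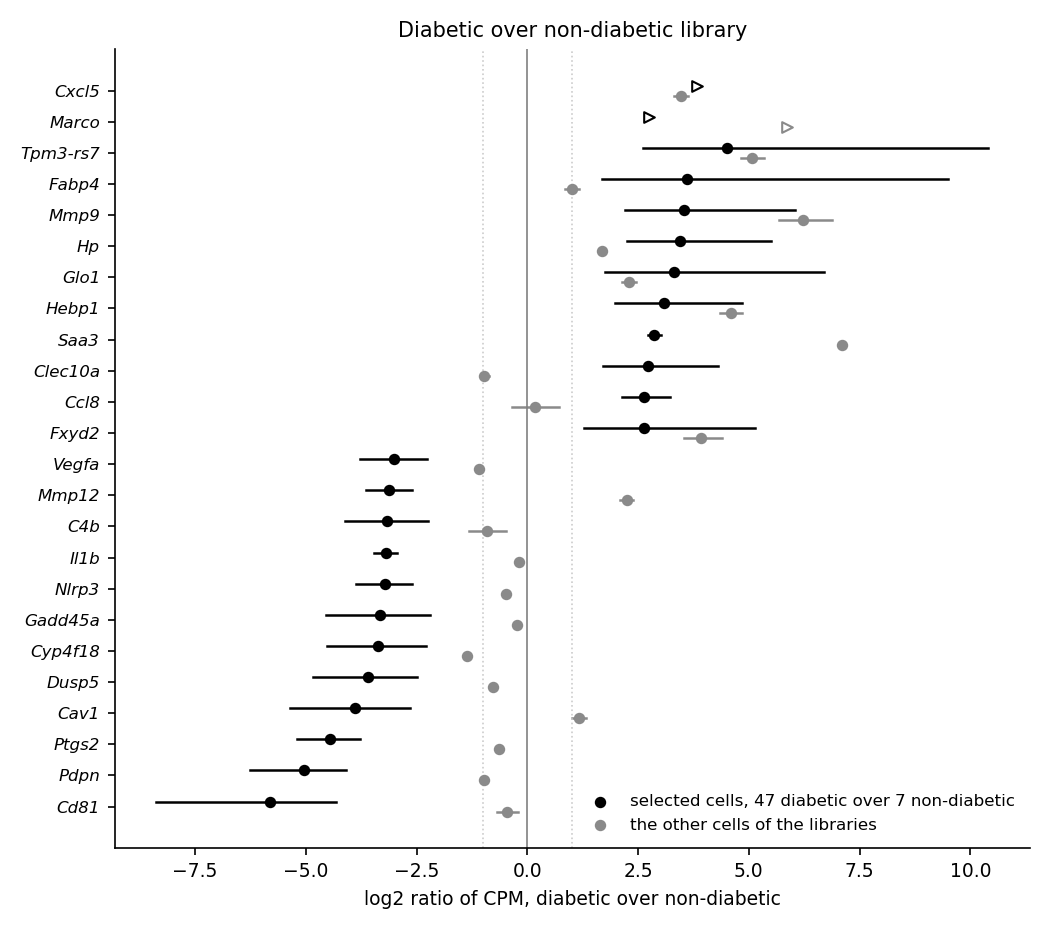
Log2 ratio of CPM, diabetic over non-diabetic, for 24 genes (black, 47 over 7 selected cells; grey, other filtered cells; bars, 95% intervals of counting error; open triangles, bounds against a floor of 3 UMIs; dotted lines, 2-fold). Clec10a and Cd81 stand apart from their grey points, while Hebp1 and Saa3 are higher in both.

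Interferon-induced genes were lower in the diabetic selected cells. Of 8 measured, 7 were at least 2-fold lower and none higher, with a list median of -1.44. In the other cells 15 of 16 were lower (median -2.20). Isg15, a ubiquitin-like protein made on interferon signalling, was found in 11 of 48 diabetic and 6 of 8 non-diabetic cells. Thinned to 5000 UMIs, the expected shares were 8.9% and 35.9%. Its log2 ratio was -2.17 (-3.05 to -1.22), with 61.1% of the 18 non-diabetic UMIs in 1 cell. Bst2, which tethers viruses to the cell surface, had a ratio of -2.30 (-2.77 to -1.82), and Irf7, a transcription factor of the response, of -1.77 (-2.70 to -0.71). The count held without cells above the 95th percentile of UMIs, at 7 of 8 lower (median -1.41), over 5 non-diabetic and 40 diabetic cells.

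The inflammatory list did not hold in the same way. With all 7 non-diabetic cells, 9 of 10 measured mediators were lower and 0 higher in the diabetic cells (median -2.68). Without the deepest cells 4 were higher and 3 lower (median 0.36), over 5481 measured genes of which 503 (9.18%) were higher and 612 (11.2%) lower. Il1b changed from -3.19 to 3.05, and 96.4% of its non-diabetic UMIs were in 1 cell. Its diabetic sum also leaned on few cells. Of 25 diabetic cells with a UMI of Il1b, 1 held 88 and another 74, and neither was among the deepest. Ptgs2 was -4.44 with all cells. Immediate early genes changed from 7 of 15 lower to 3 of 15, and classical monocyte genes from 2 of 7 higher to 6 of 7. Of 15 lysosome genes none passed 2-fold in either direction, and of 8 MHC class II genes 3 were higher (H2-Aa, H2-Eb1, H2-DMa), with and without the deepest cells. In 1 non-diabetic cell lay 29 UMIs of H2-Aa and 18 of H2-Eb1, and the next highest held 8 and 4. Resident genes were split, 3 higher (Cd163, Clec10a, Selenop) and 4 lower of 16, and 2 higher and 6 lower of 15 without the deepest cells.

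Within the 48 diabetic cells Saa3 and MHC class II genes were mostly high in different cells. Saa3 spanned 0 through 897.2 to 117086 CPM, and 18 cells held at least 100 UMIs. H2-Aa spanned 0 through 49.9 to 10045.7 CPM, and 12 cells held at least 10 UMIs. Spearman's rho across the 48 cells was -0.512 for Saa3 with H2-Aa, 0.560 for Cd163 with Saa3, -0.316 for Cd163 with H2-Aa and -0.552 for Saa3 with Igf1. All of these come from the same library and, as CPM, share a total.

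**Figure D4:**
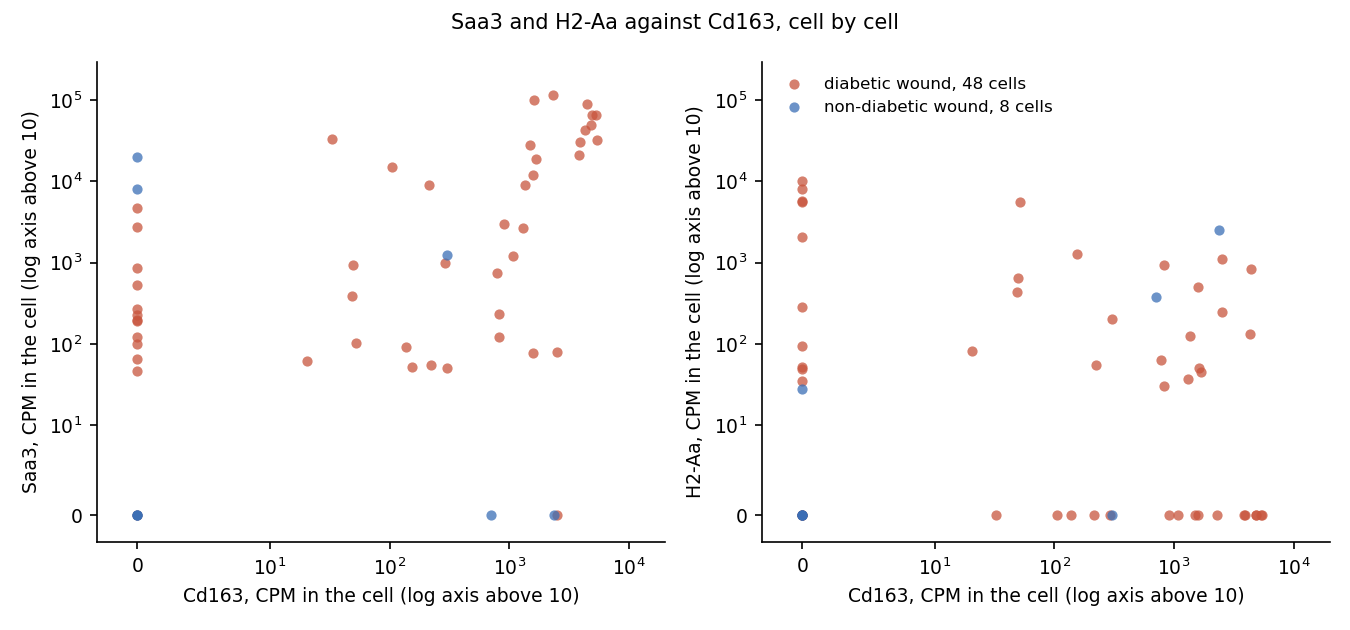
Saa3 (left) and H2-Aa (right) against Cd163, CPM per cell (axes logarithmic above 10 CPM and linear below; red, 48 diabetic; blue, 8 non-diabetic). Saa3 is mostly high where Cd163 is high, while cells with much H2-Aa mostly hold little Cd163.

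Splitting the diabetic cells at 10 UMIs of Cd163, a choice made after its values were seen, gave 23 cells with and 25 without. Here, without means under 10 UMIs and not absence, since 35 of the 48 cells held a UMI of Cd163. Of 6014 measured genes 238 (3.96%) were at least 2-fold higher and 293 (4.87%) lower in the Cd163 cells. Median Saa3 was 18993 CPM with and 199 CPM without Cd163 (log2 ratio of sums 3.21, 3.14 to 3.28). Haptoglobin (Hp), another acute-phase protein, had medians of 306 and 0 CPM. Of 7 acute-phase genes 5 were higher and 1, Lcn2, lower. The neutrophil chemoattractant Cxcl5 had a ratio of 6.43 (5.09 to 8.94), in 4 of 23 and 3 of 25 cells, and 1 cell held 78.4% of its UMIs. C1qa was high on both sides, with medians of 5185 and 3598 CPM.

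The cells without Cd163 held more MHC class II transcripts, Ccr2 and Cx3cr1. H2-Aa had a ratio of -2.91 (-3.26 to -2.60), Cd74, the invariant chain of MHC class II, of -2.22 (-2.39 to -2.04), and 5 of 8 genes of that list were lower with Cd163. Median Cd74 was 30.7 CPM with and 1106 CPM without Cd163. Ccr2 had a ratio of -3.72 (-4.76 to -2.93), found in 4 of 23 and 13 of 25 cells. The fractalkine receptor Cx3cr1 had -5.45 (-11.35 to -3.49), found in 1 of 23 and 6 of 25 cells, with 66.7% of its UMIs in 1 cell. The classical monocyte list was split, with 3 of 7 higher (Vcan, Hp, Gsr) and 2 lower (Ccr2, Chil3) with Cd163. Igf1 was the rule gene that leaned to this side, with a ratio of -0.60 (-0.94 to -0.27) and medians of 50.9 and 201 CPM.

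The selected cells overlapped other macrophage gates in part. Of the 48 diabetic cells 23 lay in the Cd163 gate of 154 cells, 12 in a gate of 111 cells with Ccl24 or Lpl, and 3 in a gate of 44 cells with Cx3cr1 and C1q. Against the 131 Cd163 cells that were not selected, 538 of 8742 measured genes (6.15%) were higher and 496 (5.67%) lower. Hpgds was higher than there by a log2 ratio of 3.87 (3.21 to 4.67), Ccl12 by 3.07 (2.70 to 3.46) and Gpnmb by 2.71 (2.28 to 3.16). For Gpnmb, 1 selected cell held 64 UMIs and another 31. All 12 measured inflammatory mediators were lower (median -2.54), as were 6 of 8 acute-phase and 6 of 7 neutrophil genes. Saa3 there had a median of 41681 CPM. Of 13 complement genes 1 was higher and 0 lower.

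Against the 41 Cx3cr1 and C1q cells outside the rule, 474 of 7384 genes (6.42%) were higher and 371 (5.02%) lower. Here 14 of 16 resident genes were higher and 0 lower (median 2.55), 8 of 11 MHC class II genes were lower and 0 higher, and 8 of 14 heme and iron genes were higher and 0 lower. Against the Ccl24 and Lpl cells, 742 of 8786 genes (8.45%) were higher and 938 (10.7%) lower. Ccl12 was higher than there by a log2 ratio of 5.41 (4.64 to 6.44), Cd163 by 4.56 (4.30 to 4.84), Hpgds by 3.13 (2.54 to 3.80) and Fabp5 by 2.63 (2.55 to 2.71).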

How the data were processed

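Single-cell 3' RNA was measured in 2 libraries of wound monocytes and macrophages, 1 non-diabetic and 1 diabetic, grouped by the disease state in the labels. Values are raw counts of UMIs, as deposited by the authors, from Cell Ranger version 3.0.2 per the file headers. The submitters' processing notes name build mm10, and the sources used here give no annotation release. The libraries held 2026 and 2214 barcodes with 17559986 and 31730014 UMIs. Scrublet marked 0.178% and 0.228% of filtered cells and no selected cell. Whether it found the doublets present was not tested, and none were removed. Above the 95th percentile of UMIs of their library (24271 and 29931.1) lay 3 of the 8 and 8 of the 48 selected cells.

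Counts were summed over cells and divided by the sum to give CPM. Log2 ratios used sums with 0.5 added. Intervals are Clopper-Pearson for shares and conditional exact binomial for ratios, checked on simulated Poisson sums. A sum of 0 was replaced by 3 counts for bounds. A count of 0 cells was likewise replaced by 3 cells, so the shares given as allowed by 0 are not Clopper-Pearson limits. For Timd4 in the 48 diabetic cells that limit was 7.40%. With 1 library per group no test was made. The selected cells and the 43 gene lists (402 of 403 genes matched) were chosen with earlier results of these data known. Named genes were the 15 highest and 10 lowest against other cells in both libraries, the 12 highest and 12 lowest between libraries, all at 100 CPM or more, and up to 5 genes per list at 20 CPM or more; the between-library set was also taken without stromal cells, an added choice. Near-identical copies (95% identity over 200 bases) were sought with BLAST version 2.17.0. Python version 3.11.15 with edgeR version 4.0.16 (TMM) and DESeq2 version 1.42.0 (size factors) for other scalings were used. Alternatives covered the rule, cell filters, stromal and deep cells, count filters, scaling and the comparison cells.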

Additional observations from a re-analysis of the deposited data

How the results depend on the processing

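The share of selected cells moved with the rule. It was 1.60% in the non-diabetic library at 5 UMIs, and in the diabetic library 5.01% at 5 UMIs, 1.60% at 20 UMIs, 1.60% with Ccl8 and Igf1 only and 1.99% with Gas6 and Igf1 only. Between libraries, 2813 genes passed 2-fold with a filter of 5 UMIs and 536 with 50 UMIs, against 1236 with all selected cells. Against cells with 10 or more C1q UMIs, 2420 genes passed in the non-diabetic and 1478 in the diabetic library, against 3963 and 2642 with all other cells. The split of higher and lower genes depended on scaling. In the diabetic library 1287 higher and 1355 lower became 975 and 1571 with TMM, 979 and 1568 when centred on the median, and 1527 and 898 with a pseudocount of 1. In the non-diabetic library, with 8 cells, 2771 and 1192 became 1864 and 1906 with TMM, 1940 and 1838 with DESeq2 size factors, 1949 and 1823 when centred, and 3547 and 764 with a pseudocount of 1. The medians of all genes behind this were 0.14 and 0.34 in log2.

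Of 1549 single-gene values under 22 alternatives, 1076 stayed within the main interval, 462 moved further and 11 reversed, in 6 of 72 results. Here reversed means a change of sign from a main value of at least 2-fold. Sign changes from smaller main values were not counted as reversed, inside the main interval or outside it. The alternatives started from all 8 non-diabetic cells. Between libraries, Lyve1 was 0.24 at 20 UMIs and 0.17 with Ccl8 and Igf1 only, and Hp -0.53 and -0.56. Both settings kept the collagen-rich cell, which held 27 UMIs of Hp and 0 of Lyve1. Il1b was 0.71 with Ccl8 and Gas6 only and 3.05 without the deepest cells. Mmp12 was 0.013 with Gas6 and Igf1 only, 0.37 under 5% mitochondrial UMIs and 0.19 without the deepest cells, where C1qa was -0.014. Ccl12 against other non-diabetic cells was -0.44 under 5% mitochondrial UMIs. That limit also kept the collagen-rich cell, with 0 UMIs of Ccl12 and Mmp12, as did the setting with Ccl8 and Gas6 only. Whether these signs change once it is left out was not tested, and neither was the cause. No paired analysis was possible because each group has 1 library and no test was made. With 8 non-diabetic cells, a gene found in few cells sets the precision.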

Other observations

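Cell-division genes were mixed in the diabetic selected cells. Of 10 measured G2/M genes 3 were at least 2-fold higher than in other diabetic cells (Ccnb2, Birc5, Cenpa) and 1, Top2a, lower, against 11% and 11.6% of all genes. Birc5, which works in cell division, came from 3 of the 48 cells, with 86.4% of its UMIs in 1 cell. The proliferation marker Mki67 was found in 19 of 48, with 37.5% of its UMIs in 1 cell. Cenpa, the histone of centromeres, was found in 26 of the 48 diabetic and 0 of the 7 non-diabetic macrophages.

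Transcription factors were mixed. Of 20 measured, 3 were higher than in other diabetic cells (Maf, Spic, Nr1h3) and 8 lower (Klf4, Cebpb, Nr4a1, Id2, Id3, Bhlhe40, Runx3, Hes1). Maf, a factor of resident macrophages, had log2 ratios of 2.21 (1.92 to 2.47) in the non-diabetic and 1.44 (1.32 to 1.55) in the diabetic cells. Nr1h3, the oxysterol receptor that drives lipid export, had a ratio of 1.06 (0.55 to 1.51) in the diabetic cells. Id3 was at 33.0 CPM against 202.8 CPM in other diabetic cells, a log2 ratio of -2.60 (-3.12 to -2.16).

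Among barcodes outside the cell filter, 6 of 903 non-diabetic (0.664%, 0.244% to 1.44%) and 3 of 459 diabetic (0.654%, 0.135% to 1.90%) also reached 10 UMIs of the 3 genes.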
